A study of Homo sapiens with 8 samples.

Results

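A-549 cells, a line derived from human lung adenocarcinoma, were compared with Huh-7 cells, a line derived from human hepatocellular carcinoma, by their mature miRNAs. Both are epithelial tumor lines of endodermal origin. Small RNA-seq was available for 8 libraries of 4 parental tumor lines, and the comparison used the 2 libraries of A-549 and the 2 of Huh-7. The 2 libraries each of ES-2 (ovarian carcinoma) and MV-3 (melanoma) entered the model to estimate the spread between replicates. They also entered the filter that chose the miRNAs to test and the factors that scale the libraries. All cells were seeded for 48 h before total RNA was extracted, with no treatment and no genetic modification. Each group is 1 established line, so that every difference stands between these 2 lines and not between lung and liver tumors at large. The labels do not say whether replicates were separate cultures, so p-values measure the spread between libraries, which may be technical. Of 2588 miRNA names in the table, 528 had enough reads to be tested.

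Mature miRNAs are short RNAs cut from hairpins, and either arm of a hairpin (5p or 3p) can be loaded into Argonaute to repress mRNAs that pair with the seed, the bases near the miRNA's 5′ end. miRNAs with the same seed form a family that can share target sites, whereas hairpins that lie close together on a strand form a cluster and are often cut from a shared primary transcript. miR-122 makes up much of the miRNA pool of hepatocytes, the let-7 family marks differentiated cells, and the imprinted DLK1-DIO3 region on chromosome 14 carries a very large miRNA cluster of the human genome.

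In a few families, members with nearly identical sequences differed between the lines by different amounts or in opposite directions. Their mature sequences are given from RefSeq (GRCh38.p14), 5′ to 3′, with the seed (bases 2 to 8) in capitals. The first 3 are let-7 members with 1 seed, shown because the family was higher in A-549 as a whole but by very different amounts.
let-7i-5p: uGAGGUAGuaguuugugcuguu
let-7a-5p: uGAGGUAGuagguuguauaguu
miR-98-5p: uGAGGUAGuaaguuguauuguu
The next sets are shown because members with 1 seed were called in opposite directions, namely the miR-99/miR-100 family, the miR-148/miR-152 family and the miR-30 family.
miR-100-5p: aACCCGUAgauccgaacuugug
miR-99b-5p: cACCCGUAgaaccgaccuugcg
miR-99a-5p: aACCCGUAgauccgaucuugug
miR-148a-3p: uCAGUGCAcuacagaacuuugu
miR-148b-3p: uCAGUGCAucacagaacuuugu
miR-152-3p: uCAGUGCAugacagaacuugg
miR-30a-5p: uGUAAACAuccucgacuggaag
miR-30e-5p: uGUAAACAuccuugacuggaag
The last 4 are the miRNAs whose levels separated the lines most in either direction and that belong to none of these families.
miR-31-5p: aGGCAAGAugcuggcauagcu
miR-10a-5p: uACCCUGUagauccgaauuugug
miR-122-5p: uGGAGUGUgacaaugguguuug
miR-885-5p: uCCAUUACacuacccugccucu

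The A-549 libraries held 2670030 and 2060669 reads on mature miRNAs and the Huh-7 libraries 2173587 and 1718250. A single miRNA dominated both lines, since miR-21-5p, a miRNA abundant in many tumors, took 64.6% ± 0.610 (SD, n = 2) of the reads in A-549 against 33.1% ± 0.306 in Huh-7. Deposited values are read counts relative to the library total (CPM) scaled by the trimmed mean of M values (TMM), called normalised CPM here, and the TMM factors were far apart, at 0.608 and 0.593 for A-549 and 1.63 and 1.70 for Huh-7. Library CPM is the same measure without these factors. Relative to TMM, scaling by library size alone shifts the difference of an abundant miRNA, A-549 minus Huh-7, by -1.47 on the log2 scale. The shift is smaller for low miRNAs because 1 is added to every value, with -1.28 for the median difference. The 5 scalings set side by side were TMM, the median of ratios of DESeq2 (RLE, a shift of 0.23 for abundant miRNAs), library size alone, library size without miR-21-5p (a shift of -0.55) and the geometric mean of miR-103a-3p, miR-191-5p and miR-423-5p as references (a shift of 1.03).

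With TMM, limma called 276 of the 528 miRNAs at an adjusted p below 0.01 (52.3%), 151 higher in A-549 (28.6%) and 125 higher in Huh-7 (23.7%). edgeR on the recovered reads called 282 (53.4%), 162 higher in A-549 (30.7%) and 120 higher in Huh-7 (22.7%). The split moved with the scaling. By library size alone 355 were called (67.2%), 111 higher in A-549 (21.0%) and 244 higher in Huh-7 (46.2%). Without miR-21-5p in the library size there were 296 calls (56.1%), 136 on the A-549 side (25.8%) and 160 on the Huh-7 side (30.3%). RLE gave 278 calls (52.7%), of which 167 (31.6%) and 111 (21.0%) lay on these sides. The reference miRNAs gave 281 calls (53.2%), 209 on the A-549 side (39.6%) and 72 on the Huh-7 side (13.6%). The direction of the difference was the same under all 5 scalings for 163 miRNAs higher in A-549 and for 172 higher in Huh-7, depended on the scaling for 180, and could not be given for the other 13, which had no read in the 4 libraries. Calls under all 5 scalings were made for 111 miRNAs higher in A-549 (21.0%) and for 72 higher in Huh-7 (13.6%). Of the 276 miRNAs called with TMM, 35 had a direction that depended on the scaling, 15 called higher in A-549 and 20 called higher in Huh-7, and the largest difference among these 35 was 1.37 on the log2 scale. Replicates of a line differed by a median of 0.238 in A-549 and 0.205 in Huh-7 on the log2 scale, over 376 miRNAs that averaged 10 normalised CPM or more. The plot of level against difference shows these groups as a band around the zero lines of the scalings.

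**Figure D1:**
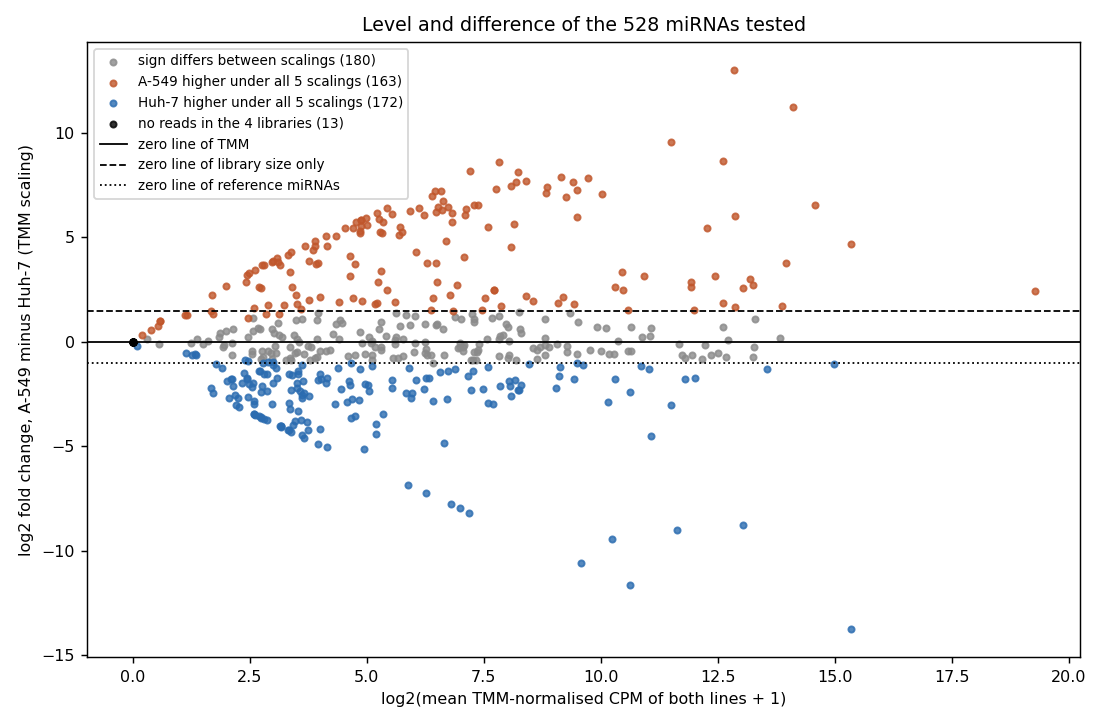
Each point is 1 of the 528 miRNAs tested, with the log2 of its mean normalised CPM over both lines (plus 1) on the x axis and its log2 difference, A-549 minus Huh-7, on the y axis. Grey points, 180 in all, change direction between the 5 scalings and lie mostly between the zero lines of library size alone and of the reference miRNAs, whereas 163 orange points are higher in A-549 and 172 blue points higher in Huh-7 under each scaling, and 13 black points at 0 had no read in the 4 libraries.

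The 4 miRNAs listed as markers, miR-31-5p and let-7i-5p for A-549 and miR-122-5p and miR-885-5p for Huh-7, were each called on the side of their line under all 5 scalings. The liver line was set apart by miR-122, the hepatocyte miRNA, and by miR-885. In replicate order, miR-122-5p had a normalised CPM of 7.39 and 3.27 in A-549 and 81224 and 86217 in Huh-7, a difference of -13.77 ± 0.80 (log2, SE; adjusted p = 1.33e-05). The A-549 values rest on few reads (12 and 4). Its hairpin MIR122 lies at chr18:58451074-58451158 in an exon of MIR122HG, and the other arm, miR-122-3p, had no read in A-549 and 278 and 226 normalised CPM in Huh-7. miR-885-5p, from MIR885 in an intron of ATP2B2 at chr3:10394489-10394562, also had no read in A-549, with 3200.0 and 3161 normalised CPM in Huh-7. Against a floor of 3 reads, the smallest count treated here as measured, in the A-549 library where a read weighs most this is at least 1296-fold higher in Huh-7 by normalised CPM and at least 3646-fold by library CPM. Its 3p arm, at 296 and 287 normalised CPM in Huh-7, was likewise without a read in A-549. In ES-2 and MV-3 miR-885-5p averaged 0 and 2.11 normalised CPM, so among the 4 lines only Huh-7 carried it above the floor in both libraries.

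Other miRNAs higher in Huh-7 came from unrelated loci. miR-1269a, from MIR1269A at chr4:66276824-66276928 outside any annotated host gene, had no read in A-549 and 1618 and 1437 normalised CPM in Huh-7, at least 623-fold higher. Both arms of miR-483, whose hairpin lies within the growth factor gene IGF2, were among the 10 largest differences. miR-483-3p had a normalised CPM of 11.7 and 10.6 in A-549 and 6322 and 6347 in Huh-7 (log2 difference -9.03 ± 0.92, adjusted p = 0.000204). miR-483-5p had 0 and 10.6 in A-549 and 2334 and 2469.9 in Huh-7 (difference -9.46 ± 1.27, adjusted p = 0.000733), and the A-549 libraries disagreed on whether it was present at all, with 0 and 13 reads. Its adjusted p rose to 0.0131 without Huh-7 replicate 1 and to 0.0123 without Huh-7 replicate 2. The 2 arms of miR-675, the miRNA of the neighbouring H19 gene, had too few reads to be tested. miR-148a-3p, a miRNA abundant in liver, had a normalised CPM of 41.9 and 33.5 in A-549 and 17559 and 16144 in Huh-7, a difference of -8.77 ± 0.45, and its 5p arm had no read in A-549. miR-548x-3p and miR-618, the second of which was picked after its values were seen, were also without a read in A-549 and stood at 244 and 200.1 and at 119.9 and 111 normalised CPM in Huh-7.

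The lung line was set apart most by miR-31-5p. It had a normalised CPM of 15261 and 14187 in A-549 and 0.563 and 1.02 in Huh-7, a fitted difference of 13.01 ± 0.14 (adjusted p = 1.35e-08). The Huh-7 values rest on 2 and 3 reads and lie at or under the floor. The mean level in A-549 was 14371-fold that floor by normalised CPM and 5069.9-fold by library CPM. Since replicate 2 of Huh-7 held 3 reads, the floor itself, these ratios are not lower bounds. Its hairpin MIR31 lies at chr9:21512115-21512185 in an intron of MIR31HG. miR-31-5p was not particular to A-549 among the 4 lines, since ES-2 and MV-3 averaged 3184 and 4395 normalised CPM, and the same held for let-7i-5p with 31088 and 18218. Among the 4 lines, Huh-7 had the lowest level of both.

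miR-361 was also near 0 in Huh-7 and present in the other lines. Both of its arms come from MIR361 at chrX:85903636-85903707, in an intron of the gene CHM. miR-361-5p had a normalised CPM of 435 and 477 in A-549 and 0 and 0.342 in Huh-7. For miR-361-3p the values were 252 and 338 in A-549 and 0 and 0 in Huh-7. Together, both Huh-7 libraries held 1 read over both of its arms, whereas ES-2 averaged 863 and MV-3 267 normalised CPM of miR-361-5p. A-549 was at least 445-fold higher for the 5p arm and at least 288-fold higher for the 3p arm. In all, 6 miRNAs with at least 100 library CPM in A-549 were at or under the floor of 3 reads in both Huh-7 libraries, and 7 with at least 100 library CPM in Huh-7 were so in both A-549 libraries. The first set also held miR-376c-3p, miR-138-5p and miR-381-3p, the last 2 of which were picked after their values were seen.

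**Figure D2:**
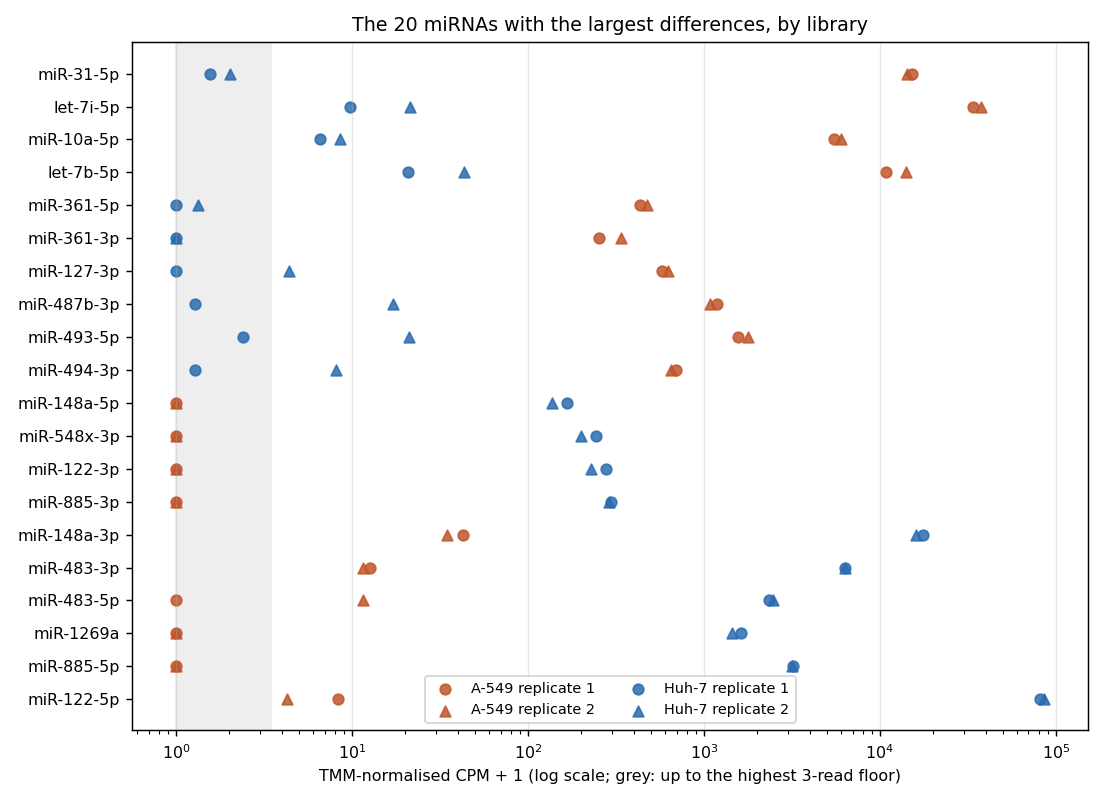
Normalised CPM plus 1 in each of the 4 libraries (log axis) for 20 called miRNAs, the 10 farthest above and the 10 farthest below Huh-7 in A-549 that reached 100 library CPM in either line. The lines are far apart for each miRNA and most replicates lie together, except that Huh-7 replicate 2 lies above replicate 1 for miR-127-3p, miR-487b-3p, miR-493-5p and miR-494-3p and A-549 replicate 2 above replicate 1 for miR-483-5p. The grey area ends at the highest 3-read floor, 2.45 normalised CPM.

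All 9 members of the let-7 family, which represses growth genes in differentiated cells, were called higher in A-549, with a median difference of 5.46 against -0.09 for all miRNAs tested. The summed family took 11.4% ± 1.13 (SD, n = 2) of the reads in A-549 and 1.46% ± 0.102 in Huh-7. let-7i-5p, from MIRLET7I at chr12:62603686-62603769, had a normalised CPM of 33692 and 37527 in A-549 and 8.73 and 20.5 in Huh-7 (difference 11.26 ± 0.33). let-7a-5p, the most abundant member in both lines, had 73866 and 87030.3 in A-549 and 2987 and 3341 in Huh-7 (difference 4.67 ± 0.10). The libraries of the 2 lines did not overlap in normalised CPM for any member, as for 434 of all 528 miRNAs (82.2%), and the differences ran from 0.97 for let-7c-5p through 2.70 for let-7e-5p to 8.69 for let-7b-5p and 11.26 for let-7i-5p. let-7c-5p was the only member whose direction depended on the scaling, at -0.50 by library size alone, and it was not called when either Huh-7 library was left out. The other 8 members were called higher in A-549 by library size alone as well. Shares within the family do not depend on the scaling. let-7i-5p made up 18.9% ± 0.778 of let-7 reads in A-549 and 0.166% ± 0.0886 in Huh-7, and let-7b-5p 6.57% ± 0.495 and 0.352% ± 0.169. In turn, let-7e-5p made up 9.00% ± 0.108 in A-549 and 29.9% ± 0.764 in Huh-7, and let-7c-5p 0.514% ± 0.0580 and 5.66% ± 0.299. These sequences differ at few bases, and how the counting treated reads that match several members was not stated, so that reads may be split between members.

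In several families 1 seed was held by different members in the 2 lines. The miR-10 pair comes from the HOX gene clusters. miR-10a-5p, from MIR10A in an intron of HOXB3 at chr17:48579838-48579947, had a normalised CPM of 5508 and 6039.6 in A-549 and 5.63 and 7.51 in Huh-7 (difference 9.58 ± 0.13). miR-10b-5p had 1078 and 1241 in A-549 and 2672 and 2447 in Huh-7 (difference -1.14 ± 0.09) and was thus called the other way, though not with the reference miRNAs (-0.12). miR-10a-5p made up 83.3% ± 0.473 of the pair's reads in A-549 and 0.258% ± 0.0678 in Huh-7. Both together took 0.416% ± 0.0221 of all reads in A-549 and 0.428% ± 0.0137 in Huh-7, a difference in total smaller than the spread between replicates. By normalised CPM the pair summed to 6934 ± 490.3 in A-549 and 2566 ± 158 in Huh-7, so that the equal total holds by library size and not by TMM.

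The miR-99/miR-100 family was divided in the same way. miR-100-5p, from MIR100 within MIR100HG, had a normalised CPM of 14906 and 14608 in A-549 and 244 and 203 in Huh-7 (difference 6.05 ± 0.11), and miR-99a-5p, from MIR99A within MIR99AHG, had 267 and 287 in A-549 and 2114 and 1923 in Huh-7 (difference -2.86 ± 0.11). miR-99b-5p was called higher in A-549 at 0.72 ± 0.07, but its direction changed to -0.75 by library size alone. miR-100-5p made up 64.6% ± 1.05 of the family in A-549 and 3.20% ± 0.200 in Huh-7, and miR-99a-5p 1.22% ± 0.0987 and 28.9% ± 0.104.

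For the miR-148/miR-152 family, miR-148a-3p made up 90.1% ± 0.0110 of the reads in Huh-7 and 2.36% ± 0.523 in A-549. miR-148b-3p led in A-549 with 81.5% ± 0.888 of the reads, at a normalised CPM of 1242 and 1386 in A-549 and 1825 and 1686 in Huh-7. Its difference of -0.42 was called but turned to 0.61 with the reference miRNAs. miR-152-3p was called higher in A-549 (1.51 ± 0.17), but not by library size alone (0.05). In the miR-30 family, which helps to maintain the epithelial state, miR-30a-5p had a normalised CPM of 49594 and 47769 in A-549 and 551 and 494 in Huh-7 (difference 6.54 ± 0.07, adjusted p = 1.35e-08). miR-30d-5p, the leading member in Huh-7, had 15816 and 15228 in A-549 and 13798 and 13522 in Huh-7 and was not called. miR-30a-5p accounted for 66.5% ± 0.0317 of the family in A-549 and 2.53% ± 0.108 in Huh-7, and miR-30d-5p for 21.2% ± 0.0158 and 66.3% ± 1.39. Of the other members, miR-30c-5p was called higher in A-549 (1.55, but 0.07 and not called by library size alone), miR-30e-5p higher in Huh-7 (-0.65, but 0.38 with the reference miRNAs) and miR-30b-5p higher in A-549 (0.69, but -0.78 by library size alone).

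**Figure D3:**
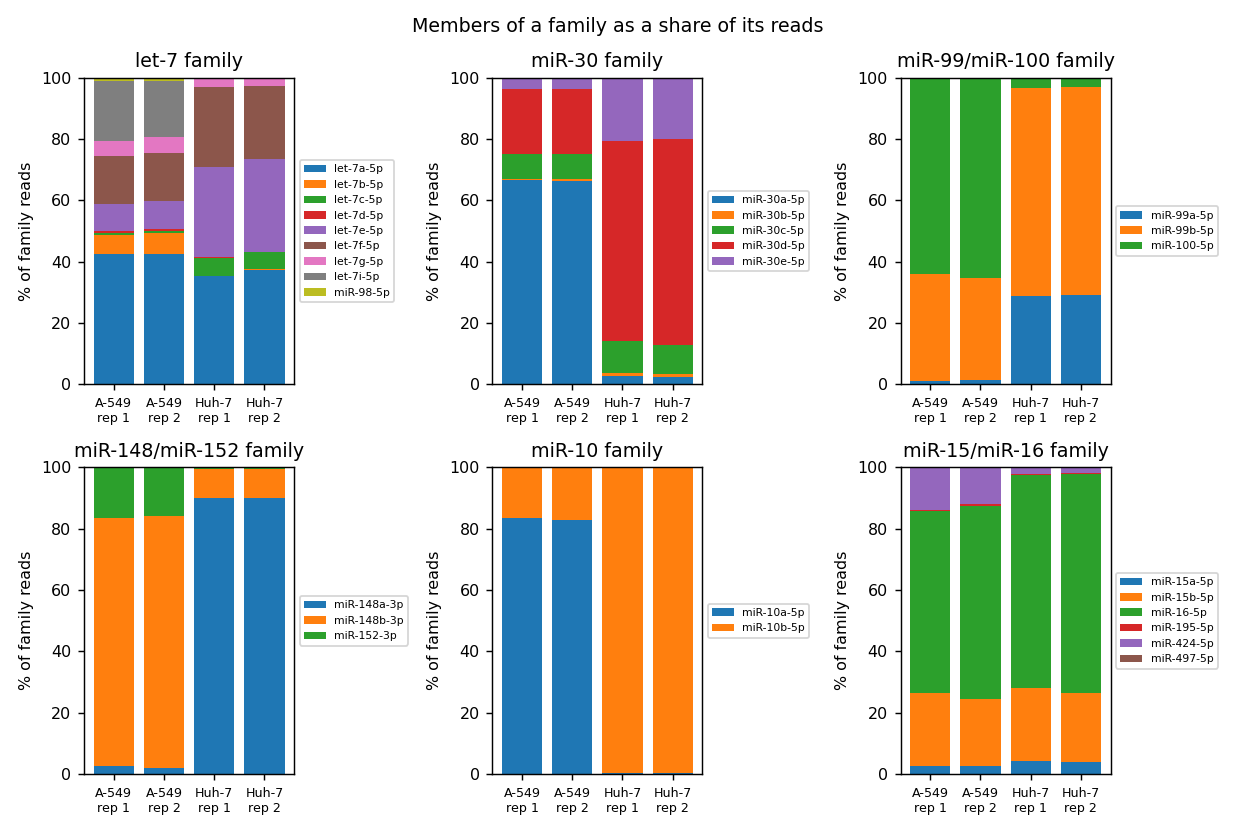
Stacked bars give each member's share of its family's reads (y axis, percent) in the 2 A-549 and the 2 Huh-7 libraries for the let-7, miR-30, miR-99/miR-100, miR-148/miR-152, miR-10 and miR-15/miR-16 families. Bars of a line are nearly the same in both replicates, and miR-30a-5p, miR-100-5p, miR-148b-3p and miR-10a-5p lead in A-549 and miR-30d-5p, miR-99b-5p, miR-148a-3p and miR-10b-5p lead in Huh-7.

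Smaller shifts of this kind were found in 3 further families. miR-92b-3p was called higher in A-549 (2.49 ± 0.07) while miR-92a-3p and miR-25-3p with the same seed were called higher in Huh-7 (-1.05 and -0.83, and -0.02 and 0.19 with the reference miRNAs). miR-424-5p was called higher in A-549 (2.18 ± 0.19) and made up 12.7% ± 1.33 of the miR-15/miR-16 family there against 1.88% ± 0.162 in Huh-7, whereas miR-15a-5p and miR-16-5p were called higher in Huh-7 (-1.19 and -0.78) and the other 3 members were not called. The call of miR-16-5p turned to 0.25 with the reference miRNAs. In the miR-34 family, whose genes are induced by p53, miR-34c-5p had a normalised CPM of 239 and 155 in A-549 and 2.25 and 0 in Huh-7 (difference 6.74 ± 0.64), while miR-34a-5p with 435 and 452 in A-549 and 174 and 152 in Huh-7 and miR-34b-5p with 12.9 and 4.91 in A-549 and 0 and 0 in Huh-7 were not called. The more abundant arm of miR-34b, miR-34b-3p, averaged 84.2 normalised CPM in A-549 and 0 in Huh-7 and was called higher in A-549. The miR-146 family, induced by inflammatory signals, was called higher in Huh-7 for both members. miR-146a-5p had a normalised CPM of 175 and 187 in A-549 and 4323 and 4007 in Huh-7 (-4.51 ± 0.09) and miR-146b-5p 58.5 and 77.7 in A-549 and 177 and 157 in Huh-7 (-1.29 ± 0.19), the latter not called without Huh-7 replicate 1.

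The miRNAs of the imprinted DLK1-DIO3 region were higher in A-549 as a block. All 10 tested miRNAs of the 11 in the upstream group (miR-493 to miR-136) and all 27 tested of the 32 in the downstream group (miR-379 to miR-656) were called, with medians of 5.66 and 6.08 against -0.09 for all miRNAs tested. The remaining 6 miRNAs had too few reads to be tested. Another rule joined every annotated hairpin up to 10 kb from the next on the same strand, whether tested or not. By this rule, both arms included, the downstream cluster held 39 tested miRNAs, and all 39 were called higher in A-549. The filter asks for enough reads in 2 libraries only, so members low in the other lines could pass through A-549 alone. For example, miR-381-3p had 308 and 175 reads in A-549 and 0 and 2 in Huh-7. In ES-2 and MV-3 it reached at most 1.54 normalised CPM. For such members the direction was given in advance, and how many there were was not counted. miR-493-5p, from MIR493 at chr14:100869060-100869148, had a normalised CPM of 1572 and 1778 in A-549 and 1.41 and 20.1 in Huh-7 (difference 7.87 ± 1.36, adjusted p = 0.00234). miR-127-3p had 574 and 623 in A-549 and 0 and 3.42 in Huh-7 (8.16 ± 0.87), miR-487b-3p 1184 and 1082 in A-549 and 0.282 and 16.1 in Huh-7 (7.92 ± 1.45) and miR-494-3p 691 and 649 in A-549 and 0.282 and 7.17 in Huh-7 (7.69 ± 1.18). For each of these 4 the Huh-7 libraries differed from each other, with replicate 2 the higher, although both lay far below A-549. The upstream group summed to 4754 and 3945 reads in A-549 and to 15 and 145 reads in Huh-7. For the downstream group the sums were 15350 and 11230 reads in A-549 and 58 and 409 reads in Huh-7. By library CPM, Huh-7 replicate 2 was 12.2-fold above replicate 1 for the upstream group and 8.92-fold for the downstream group.

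Above 4-fold, this unevenness was almost limited to the region, and smaller differences between the Huh-7 libraries were not counted. Of 425 tested miRNAs with at least 15 reads in Huh-7, 13 were more than 4-fold higher in replicate 2 and 12 of these were miRNAs of the chromosome 14 clusters, while 2 were more than 4-fold higher in replicate 1. The 15 reads were summed over both Huh-7 libraries. miRNAs such as miR-382-5p (0 and 25 reads) and miR-495-3p (0 and 31) thus passed through replicate 2 alone. How many of the 425 lay in the chromosome 14 clusters was not counted. Huh-7 replicate 2 held 4.57% of the mean A-549 level of the upstream group and 4.25% of that of the downstream group by library CPM, against 0.374% and 0.477% in replicate 1. For miR-31-5p and miR-361-5p, from other chromosomes, Huh-7 replicate 2 held 0.0197% and 0.213% of the A-549 level. Both belong to the miRNAs at or under the floor of 3 reads in both Huh-7 libraries, so such low shares were given in advance. Every tested member of the 2 groups was higher in A-549 in each alternative run, but the calls depended on single libraries. Without Huh-7 replicate 1, 6 upstream and 18 downstream members were called, without Huh-7 replicate 2 10 and 24, without A-549 replicate 1 7 and 14, and without A-549 replicate 2 4 and 17. With a pseudocount of 0.1 in place of 1, calls were left for 3 and 12 members. Pairs with similar sequences in this region, such as miR-487a-3p and miR-487b-3p, may share reads.

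**Figure D4:**
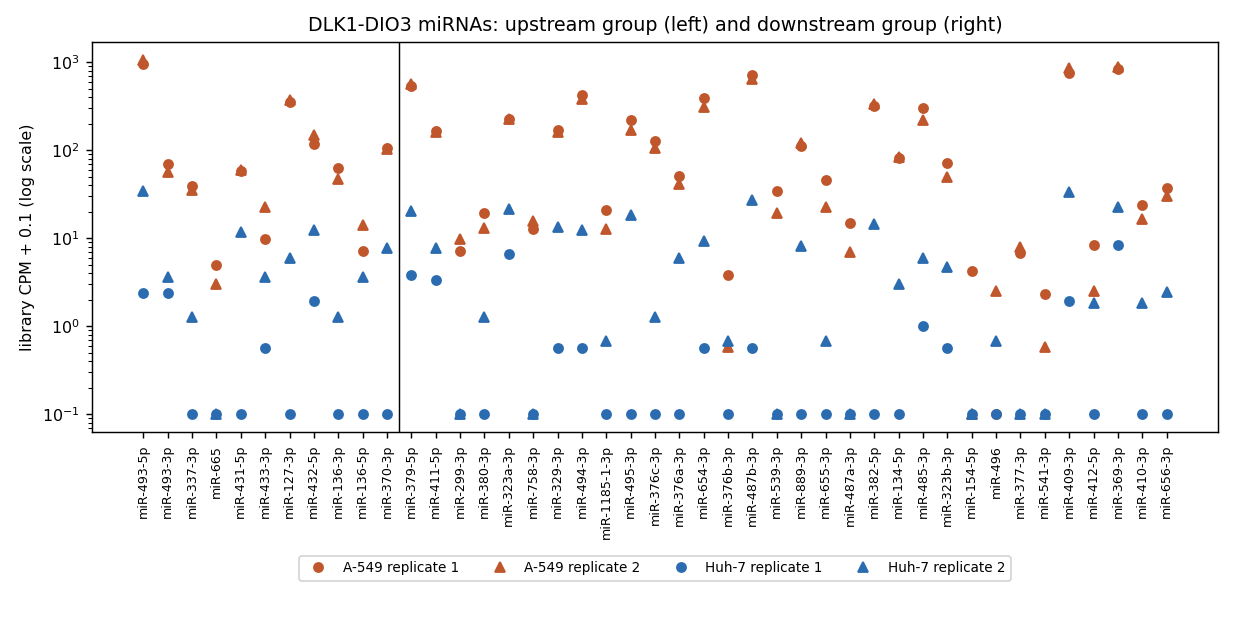
Library CPM plus 0.1 (log axis) of the 43 listed miRNAs of the DLK1-DIO3 region in each A-549 and Huh-7 library, with the upstream group left of the line and the downstream group right of it. A-549 replicates overlie each other for the abundant members, and Huh-7 replicate 2 lies above replicate 1, which sits at 0 reads (0.1 on the axis) for most members.

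Other clusters called higher in A-549 were those of miR-23a, miR-221, miR-29, miR-224 and miR-132. Among all 528 miRNAs tested, 28.6% were called higher in A-549 by TMM. In the miR-23a/miR-27a/miR-24 cluster on chromosome 19 all 3 listed members were called higher in A-549, in every alternative run and under all 5 scalings. Of these, miR-24-3p also has a locus on chromosome 9, in the cluster of miR-23b and miR-27b, and its reads cannot be assigned to either. miR-23a-3p had a normalised CPM of 16919.8 and 16202 in A-549 and 2237 and 1881 in Huh-7 (3.01 ± 0.10), miR-27a-3p 3946 and 3119 in A-549 and 394 and 379.8 in Huh-7 and miR-24-3p 10271 and 9487 in A-549 and 2826 and 2659.8 in Huh-7 (1.85 ± 0.07). The related pair miR-23b-3p and miR-27b-3p was called too, at 1.65 and 1.70, but by library size alone these were 0.18 and 0.22 and not called. miR-221-3p and miR-222-3p, which repress the cell cycle inhibitor p27, were higher in A-549 by 2.89 ± 0.10 and 2.57 ± 0.06. miR-29a-3p, a repressor of collagen mRNAs, had a normalised CPM of 7101 and 6343 in A-549 and 1182 and 1002 in Huh-7 (2.62 ± 0.09), and miR-29b-3p and miR-29c-3p were called as well (2.86 and 1.89). Of the 3, 1 was called by library size alone and 1 without A-549 replicate 2. miR-224-5p, encoded within the GABA receptor gene GABRE, had a normalised CPM of 9503 and 10431 in A-549 and 1163 and 1095 in Huh-7 (3.14 ± 0.26), and 3 of the 4 miRNAs of that locus were called. The 4 tested arms of MIR132 and MIR212 were all called higher in A-549, with a median of 4.34, and miR-132-3p, named after its values were seen, had a normalised CPM of 523 and 518 in A-549 and 23.9 and 19.1 in Huh-7.

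Apart from the IGF2/H19 locus, the clusters called higher in Huh-7 had medians within 3 of 0 on the log2 scale. Among all 528 miRNAs tested, 23.7% were called higher in Huh-7 by TMM. In the miR-532/miR-500/miR-660 cluster, in introns of the chloride channel gene CLCN5 on the X chromosome, 8 of 10 members were called higher in Huh-7 with a median of -2.28, and all 10 kept this direction under the 5 scalings. By the 10 kb rule, both arms included, 6 of 11 tested miRNAs from MIR532 to MIR502 were called and 5 were not. miR-532-5p had a normalised CPM of 172 and 195 in A-549 and 898 and 836 in Huh-7 (-2.24 ± 0.14) and miR-501-3p 107 and 92.4 in A-549 and 507 and 491 in Huh-7 (-2.31 ± 0.17). Between 5 and 6 of the 10 were called when a single library was left out (5 without A-549 replicate 1, without Huh-7 replicate 1 or without Huh-7 replicate 2) and 5 with the reference miRNAs. In the miR-17-92 cluster on chromosome 13, which is driven by MYC in many tumors, 7 of 9 members were called higher in Huh-7 with a median of -1.05. miR-17-5p had a normalised CPM of 283 and 249 in A-549 and 848 and 832 in Huh-7 (-1.66 ± 0.09), miR-18a-5p 133 and 113 in A-549 and 533 and 486 in Huh-7 (-2.05 ± 0.11) and miR-92a-3p, which also has a copy on the X chromosome, 21203 and 21239.5 in A-549 and 45109.9 and 42562 in Huh-7 (-1.05 ± 0.05). All members were on the Huh-7 side under TMM, but with the reference miRNAs the median was -0.10 and 2 were called, and 4 were called when either Huh-7 library was left out. miR-26a-5p and miR-26b-5p were higher in Huh-7 by all 5 scalings (-1.32 ± 0.06 and -1.79 ± 0.13), as were miR-191-5p and miR-425-5p (-1.72 and -1.78), of which miR-191-5p is itself a reference. In the MIR215/MIR194-1 cluster on chromosome 1, whose miRNAs are typical of gut and liver, both arms of miR-215 were called higher in Huh-7, miR-215-5p at -2.93 ± 0.67, but the call of miR-215-5p was lost when any 1 of the 4 libraries was left out. The third, miR-194-5p, also has a locus on chromosome 11 and was called at -0.61, a call that was lost when either A-549 library or Huh-7 replicate 1 was left out and that turned to 0.41 with the reference miRNAs. In the miR-193/miR-365 clusters miR-193b-3p and miR-193b-5p were called higher in A-549 (2.74 and 2.85) and miR-193a-5p higher in Huh-7 (-1.09), and the last of these calls was lost when any 1 of the 4 libraries was left out.

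**Figure D5:**
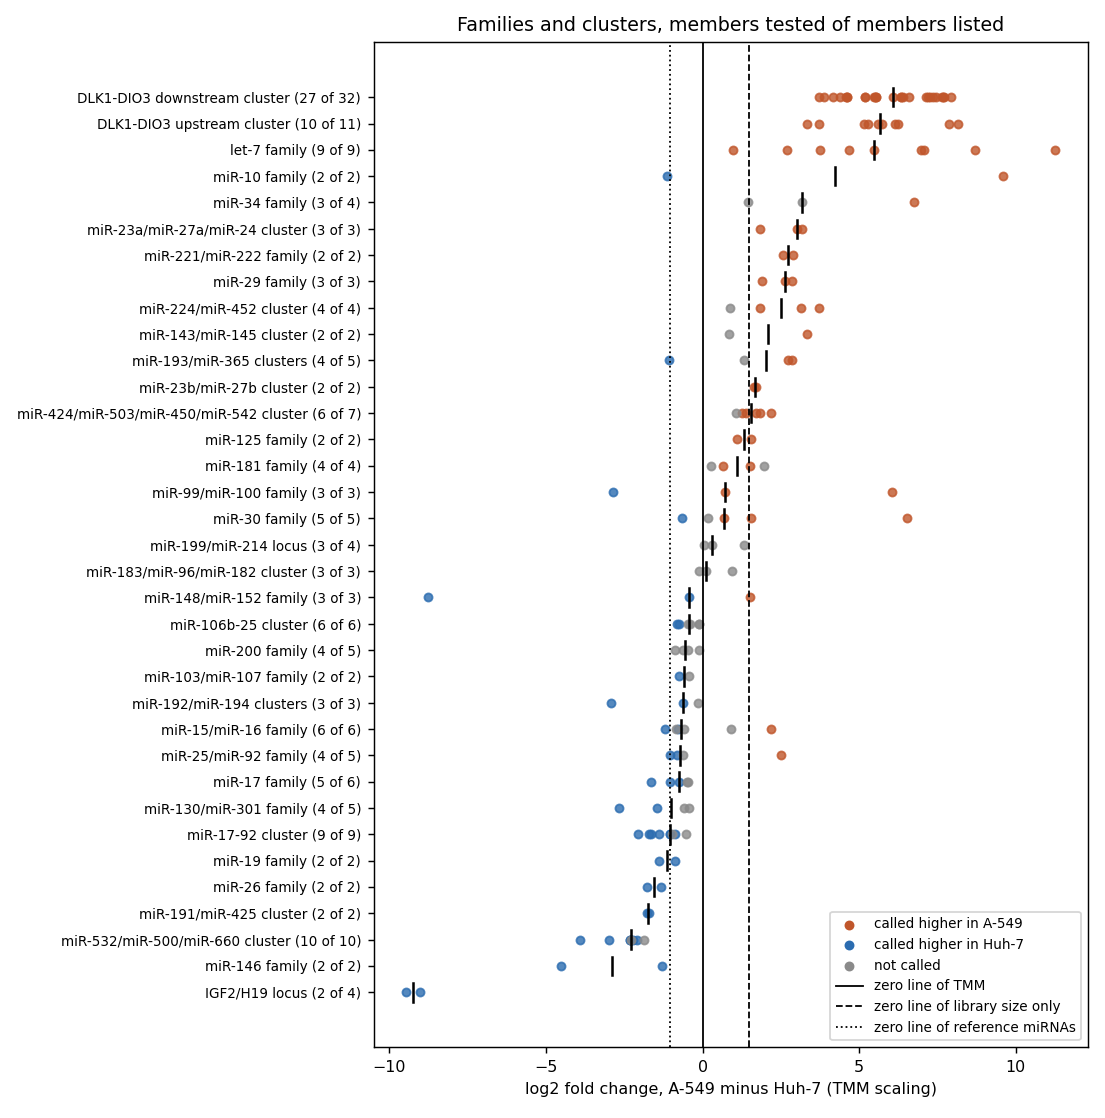
Log2 difference, A-549 minus Huh-7, of every tested member (points) of 35 families and clusters, with the median as a black bar and the numbers of members tested and listed in the labels of the y axis. The DLK1-DIO3 groups and the let-7 family lie to the right of all 3 zero lines except for 1 let-7 member, the IGF2/H19 locus lies far to the left, and most points of the middle lists lie between the zero lines of library size alone (dashed) and of the reference miRNAs (dotted).

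For several families the direction was set by the scaling. All 6 members of the miR-106b-25 cluster, the paralogue of miR-17-92 in MCM7, changed direction between scalings, with 2 called higher in Huh-7 by TMM, 6 by library size alone and none with the reference miRNAs, which called 1 higher in A-549. The 4 tested members of the miR-200 family, which holds epithelial cells together by repressing ZEB factors, were not called by TMM and depended on the scaling. miR-200b-3p had a normalised CPM of 1305 and 1403 in A-549 and 1847 and 1859 in Huh-7, a difference of -0.45 ± 0.26, against -1.93 by library size alone and 0.57 with the reference miRNAs. The miR-183/miR-96/miR-182 cluster, with 0.10 for miR-182-5p and -0.10 for miR-183-5p, was not called and depended on the scaling in all 3 members. The miR-424/miR-503/miR-450/miR-542 cluster had 5 of 6 tested members called higher in A-549 with a median of 1.54, but a median of 0.07 and no call by library size alone, and 3 calls without A-549 replicate 1. The miR-125 family had both members called higher in A-549, and miR-125a-5p (1.09 ± 0.05) turned to -0.38 by library size alone. In the miR-181 family, miR-181a-5p and miR-181d-5p were called higher in A-549 (0.65 and 1.52), but neither was called without A-549 replicate 1 or when either Huh-7 library was left out.

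In all, 8 miRNAs were called in opposite directions with and without TMM factors. They were miR-101-3p, miR-125a-5p, miR-181a-5p, miR-22-3p, miR-30b-5p, miR-7-5p, miR-769-5p and miR-99b-5p, which were higher in A-549 by 0.65 to 1.09 with TMM and higher in Huh-7 by library size alone, with values from -0.38 to -0.82. miR-22-3p, for example, had a normalised CPM of 1341 and 1367 in A-549 and 860.2 and 845 in Huh-7, higher in both A-549 libraries, although its share of the reads was lower there. The 10 most abundant miRNAs that were not called were miR-30d-5p, miR-423-3p, miR-182-5p, miR-320a, miR-192-5p, miR-183-5p, miR-181b-5p, miR-151a-3p, miR-200b-3p and miR-15b-5p, all of which changed direction under at least 1 other scaling. The reference miRNAs themselves, miR-103a-3p, miR-191-5p and miR-423-5p, were all called higher in Huh-7 under TMM, with differences of -0.74, -1.72 and -0.62. No measurement of total RNA or spiked standard was used that would fix the scale.

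The ratio of the 5p to the 3p arm of a hairpin does not depend on the scaling apart from the pseudocount, and was compared for 139 hairpins. Limma called 5 of them (3.60%), while 30 had an unadjusted p below 0.05. The 5 were miR-10a, miR-31, let-7i, miR-98 and miR-885. In each of them the less abundant arm had 0 or 1 reads in every library of at least 1 line, so that the ratio there was set by the pseudocount, and both arms of miR-885 were at 0 in A-549. miR-31, for example, had a log2 ratio of 8.08 and 8.10 in A-549 and 0.64 and 1.02 in Huh-7, where the ratios come from 5 reads in all. Among the 67 hairpins with at least 100 library CPM over both arms in each line none was called, and 65 had the same more abundant arm in both lines, with a median difference of 0.37 on the log2 scale. For these hairpins no difference in arm choice was detectable in these libraries.

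Markers of other cell types were read in the same libraries. Of 5 blood cell miRNAs, miR-142-3p, miR-142-5p and miR-144-3p had no read in any of the 4 libraries, and the 5 summed to between 0 and 2.33 library CPM. Of 3 muscle miRNAs, miR-206 had no read and the sum was between 2.91 and 12.9 library CPM. The 5 mesenchymal miRNAs summed to 1547 and 1579 library CPM in A-549 and 436 and 478 in Huh-7, nearly all of it miR-143-3p, which was called higher in A-549 (3.35 ± 0.40), while miR-199a and miR-214 stayed below 12 normalised CPM in each library. The 2 miRNAs of hepatocytes and gut, miR-192-5p and miR-194-5p, summed to 4757 and 4484 library CPM in A-549 and to 17242 and 15618 in Huh-7, and by TMM miR-194-5p was called with the limits given above and miR-192-5p was not. Of the 3 neuronal miRNAs, miR-9-5p was called higher in A-549 (5.65) and miR-128-3p higher in Huh-7 (-1.32), and the 3 summed to 964 and 1143 library CPM in A-549 and 5291 and 4770.0 in Huh-7. For the 6 epithelial miRNAs the sums were 977 and 1026 library CPM in A-549 and 3821 and 3873 in Huh-7, with none called by TMM. In bulk RNA, fewer cells with a miRNA and less of it per cell cannot be told apart, and the part of other cells in any of these levels was not tested. The miR-371-373 cluster had no reads in either line and the miR-302/miR-367 cluster, both of pluripotent cells, had 1 read over its 5 listed members in the 4 libraries.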

How the data were processed

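Total RNA of the parental lines was made into small RNA libraries by the authors (NEXTflex Small RNA kit, Illumina sequencing). They trimmed reads with Cutadapt 1.14, aligned them to GRCh38 with Bowtie2 2.3.2, counted them over miRBase mature miRNAs with featureCounts 1.5.3 and scaled them with edgeR 3.18.1. How reads matching several loci, the strand and the random adapter bases were treated is not given in the sources used here. The deposited signal values are counts relative to the library total (CPM) divided by TMM factors, per library, with no pooling.

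In each column all values were whole multiples of the value of 1 read (100% within a tolerance of 0.001), which gave back the reads. The 2813 entries were summed by name to 2588 names, of which 167 had several entries. Names kept by edgeR's filterByExpr on the reads (528) were tested with limma 3.58.1 (trend, R 4.3.3) on log2(normalised CPM + 1), with 1 term for each of the 4 lines and all 8 libraries, which left 4 residual degrees of freedom. Differences are thus on the log2(value + 1) scale and understate those of low miRNAs. A miRNA was called at a Benjamini-Hochberg adjusted p below 0.01, two-sided. The ratio of the arms was tested with the same model for 139 hairpins, but without the trend. edgeR 4.0.16 (quasi-likelihood) and DESeq2 1.42.0 on the recovered reads, the other scalings, filters and pseudocounts, and fits without single libraries were the alternatives. The fits were checked on simulated data.

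The libraries held 2060669 and 2670030 reads in A-549 and 1718250 and 2173587 in Huh-7, and 3 reads, taken as the floor, equal 0.845 to 2.45 normalised CPM. Floors cover counting error only. Named were the 4 markers, the most abundant miRNAs of each line, the 10 called miRNAs farthest apart in each direction that reached 100 library CPM in the higher line, miRNAs called in opposite directions with and without TMM factors, the 10 most abundant not called, called arm ratios, and members of the listed families and clusters. Members and lists were chosen with earlier results of these data known. Hairpin positions and sequences are from RefSeq (GRCh38.p14), where 483 of the 528 names had 1 mature sequence.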

Additional observations from a re-analysis of the deposited data

How the results depend on the processing

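Between 202 and 230 miRNAs were called when a single library was left out (222 without A-549 replicate 1, 230 without A-549 replicate 2, 202 without Huh-7 replicate 1 and 222 without Huh-7 replicate 2), against 276 with all. Other settings gave 228 calls with a pseudocount of 0.1, 239 with the 4 A-549 and Huh-7 libraries alone, 282 by edgeR, 260 by DESeq2 and 355 by library size alone, where 236 of the 276 were called the same way and 8 the opposite way. With the reference miRNAs 223 were called the same way and 7 the opposite way. RLE and library size without miR-21-5p turned no call.

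Of the 44 named miRNAs followed through every setting, by library size alone the difference changed sign for miR-101-3p (-0.77), miR-125a-5p (-0.38), miR-151a-3p (-1.26), miR-181a-5p (-0.82), miR-181b-5p (-1.20), miR-182-5p (-1.37), miR-22-3p (-0.81), miR-30b-5p (-0.78), miR-30d-5p (-1.29), miR-7-5p (-0.78), miR-769-5p (-0.63) and miR-99b-5p (-0.75). Among the same 44, without miR-21-5p in the library size it did so for miR-151a-3p (-0.34), miR-181b-5p (-0.28), miR-182-5p (-0.45) and miR-30d-5p (-0.37), and with the reference miRNAs for miR-15b-5p (0.43), miR-183-5p (0.92), miR-192-5p (0.88), miR-200b-3p (0.57), miR-320a (0.47) and miR-423-3p (0.77). RLE gave 0.13 for miR-183-5p and 0.085 for miR-192-5p, DESeq2 gave 0.13 and 0.090, and leaving out single libraries moved miR-182-5p from -0.021 (without A-549 replicate 2) to 0.23 (without A-549 replicate 1). The shifts between scalings follow from the scaling itself, which multiplies every value of a library by the same factor. The fits without single libraries kept the TMM factors, so their shifts came from the library left out.

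Of the arm ratios, 0 were called with a pseudocount of 0.1, 2 with the 4 libraries alone, 7 by library size alone and between 1 and 5 when a single library was left out (1 without A-549 replicate 2). The cause was not tested. With the replicate block, 279 miRNAs and 5 arm ratios were called, and 270 of the 276 calls were the same. The deviations of same-numbered libraries correlated at 0.0863 for A-549 and Huh-7 and between -0.0500 and 0.232 over all pairs of lines. The highest value was that of ES-2 and Huh-7. Whether the numbers pair the libraries cannot be settled from these correlations. Calls of miR-487b-3p, miR-493-5p and miR-494-3p were lost without A-549 replicate 1, A-549 replicate 2 or Huh-7 replicate 1. Depth limits miRNAs near the floor, where 45 were at or under it in Huh-7 only, 57 in A-549 only and 20 in both lines.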
